A study of Homo sapiens with 12 samples.

Results

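The genes of 10 secreted signalling proteins of inflammation were followed across the 4 groups of an RNA sequencing study of A549, an established human lung adenocarcinoma line. They are IL6, IL11, LIF, CXCL8, CXCL1, CXCL2, CXCL5, CCL20, IL1A and IL1B. Members were taken by symbol from the deposited count table, in which each symbol stood at 1 identifier, and are 10 of its 20323 genes. The groups were LKB1-deficient cells given high-dose AA, LKB1-deficient cells given phosphate-buffered saline (PBS), LKB1-intact cells given high-dose AA, and LKB1-intact cells given PBS, with 3 libraries each. AA is named VitC in the sample titles, that is, ascorbic acid or vitamin C, and the labels describe both agents as a pretreatment. The deficient cells are titled con, and the intact cells carry the genotype label WT. LKB1 is the kinase encoded by STK11. The parental A549 line is known for the loss of working LKB1. How the intact cells were obtained, whether either kind of cell is a clone, and the dose and duration of AA are not stated in the labels. The design asks whether LKB1 status changes the response to AA.

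Cytokines and chemokines are secreted proteins that carry signals between cells. IL-6, IL-11 and LIF each bind their own receptor chain and then share the signalling chain gp130, which activates JAK kinases and STAT3. CXCL8, CXCL1, CXCL2 and CXCL5 attract neutrophils through CXCR1 and CXCR2, CCL20 attracts lymphocytes and dendritic cells through CCR6, and IL-1α and IL-1β act through IL1R1 and MyD88 to activate NF-κB. In epithelial and tumour cells most of these genes are transcribed after NF-κB, AP-1 and C/EBP factors bind near their start sites, and their short-lived mRNAs carry AU-rich elements that decay factors recognise.

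Library totals ran from 16055534 to 20306129 estimated counts, and STK11 averaged 6.64 ± 0.910 CPM (counts scaled to a common library size) in deficient cells under AA, 5.79 ± 0.862 in deficient cells under PBS, 26.0 ± 2.0 in intact cells under AA and 24.5 ± 0.917 in intact cells under PBS (SD, n = 3 each). Of 12 epithelial and A549 markers, KRT7, KRT8 and KRT18 were abundant, while KRT19 and ALDH1A1 lay below the filter on low counts. The epithelial sum was 2882 to 2956 CPM in deficient cells under AA, 2873 to 3104 CPM in deficient cells under PBS, 4263 to 4433 CPM in intact cells under AA and 3156 to 3251 CPM in intact cells under PBS. CD3E, KDR and COL1A2, which mark T cells, endothelium and fibroblasts, had 0 counts in all 12 libraries, and the pan-leukocyte gene PTPRC had at most 1. The 8 leukocyte markers summed to 105 to 112 CPM in deficient cells under AA, 83.5 to 91.3 in deficient cells under PBS, 109 to 113 in intact cells under AA and 85.6 to 94.6 in intact cells under PBS, nearly all of it CD68, a lysosomal gene that is not confined to leukocytes. The 4 endothelial markers, mostly CDH5, summed to 0.719 to 1.68 CPM in deficient cells under AA against 6.56 to 9.22 CPM under PBS, and to 3.21 to 4.29 CPM in intact cells under AA against 9.19 to 10.7 CPM under PBS. The 5 fibroblast markers, mostly COL1A1, summed to 11.3 to 12.4 CPM in deficient cells under AA against 12.5 to 13.3 CPM under PBS, and to 16.3 to 17.0 CPM in intact cells under AA against 12.3 to 14.3 CPM under PBS. The part of these shifts in the results was not tested. In bulk libraries, fewer cells that express a gene and less RNA per cell cannot be told apart.

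In LKB1-deficient cells, AA went with higher mRNA of IL6, IL11, CXCL8 and IL1A and lower mRNA of LIF. In intact cells LIF and CXCL2 fell, IL6 fell slightly, and IL11, CXCL8 and IL1A did not pass the test. CXCL5 had no count in any library and CCL20 next to none, so 8 of the 10 genes passed the filter and were tested. With edgeR's quasi-likelihood test and an adjusted p under 0.05 over all 12718 tested genes, AA changed 5 of the 8 in deficient cells, against a background of 74.4% of all tested genes. In intact cells it changed 3 of the 8, against a background of 69.8%. AA shifted most of the transcriptome in both genotypes, so these counts do not stand above the background. In deficient cells 4 rose and 1 fell, where 37.0% of all tested genes rose and 37.4% fell. In intact cells 0 rose and 3 fell, where 34.5% of all tested genes rose and 35.2% fell. The median log2 change of the 8 genes was 0.84 in deficient cells, where that of all genes was 0.013, and -0.13 in intact cells, where that of all genes was 0.0069.

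The effect of AA itself differed between the genotypes for 6 of the 8 genes, IL6, IL11, LIF, CXCL8, CXCL2 and IL1A, against a background of 44.6% of tested genes. All 6 differences were positive, that is, higher in deficient than in intact cells, where 21.6% of tested genes were called with a positive and 23.0% with a negative difference. The estimates for CXCL1 and IL1B were also positive and did not pass. The median difference over the 8 genes was 1.21 on the log2 scale, beside -0.013 over all genes. The members were chosen with earlier results of these data known, so their shares and medians describe this set only. Under AA, 7 of the 8 genes were called between the genotypes, all of them higher in deficient than in intact cells, against a background of 59.0% of tested genes called in either direction and 28.7% called higher. IL1B missed the threshold. The deficient libraries lay above the intact libraries without overlap for all 8 tested genes, against 30.9% of tested genes in that direction and 63.2% in either. Of these 8, IL1B reached 10 counts in deficient libraries only, so it passed the filter through the side where it was higher. The median log2 difference between genotypes under AA was 1.42, beside -0.016 over all genes.

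Under PBS few genes were called between the genotypes: edgeR called 0 of the 8 genes, against a background of 0.275%, or 35 of 12718 genes. The median log2 difference of the 8 genes was 0.27, beside 1.47e-05 over all genes. At an unadjusted p under 0.05 there were 2 members, IL11 and CXCL2, where 8.45% of all tested genes passed, and DESeq2 also called 0 members. IL11 was -0.52 ± 0.18 (log2 and SE) in deficient against intact cells (adjusted p = 0.326 with edgeR). CXCL2 was 0.45 ± 0.20 on the same scale (adjusted p = 0.515 with edgeR), and its libraries did not overlap, as for 13.4% of tested genes, or 6.33% with deficient cells higher. The 95% interval for IL6 ran from -0.21 to 0.12. Intervals were wider for genes of few counts: -0.44 to 1.24 for CXCL8, -0.86 to 1.12 for CXCL1 and -0.67 to 1.76 for IL1B.

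**Figure D1:**
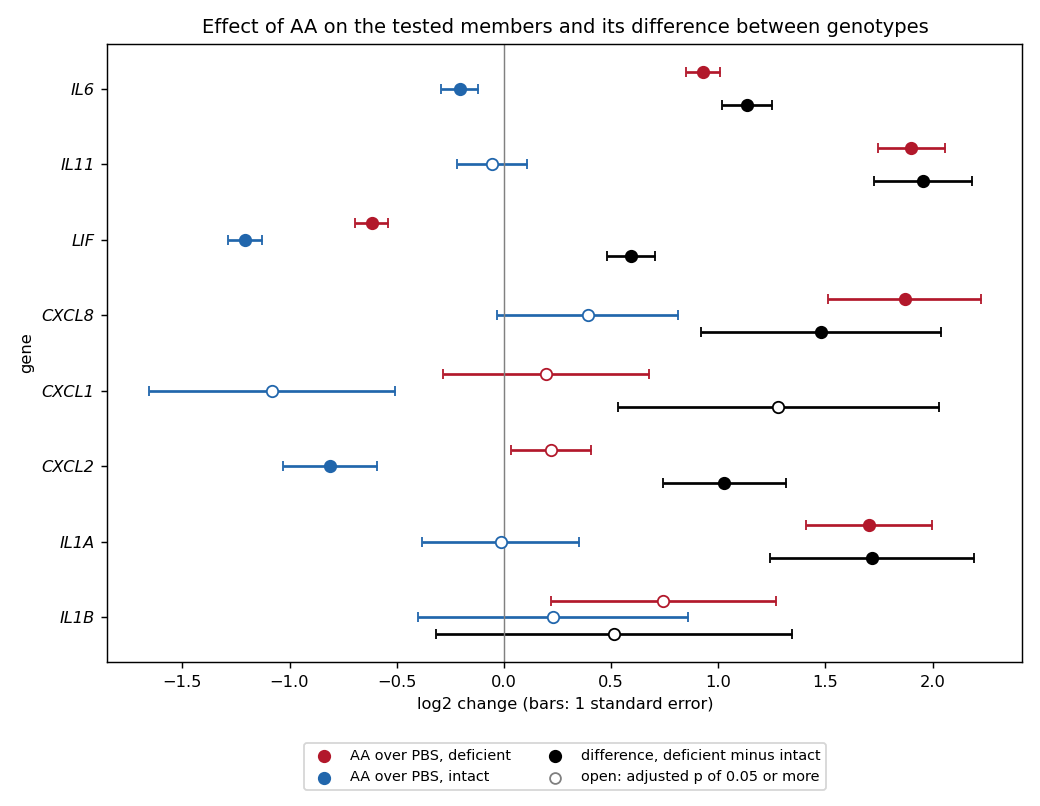
Log2 change under AA for the 8 tested genes in deficient cells (red) and in intact cells (blue), and the difference between these changes (black), with bars of 1 standard error. Filled points passed an adjusted p under 0.05 with edgeR. Every black point lies right of 0, and LIF is the gene whose change is negative and passed in both genotypes.

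On a scale that allows genes to be compared, FPKM (fragments scaled for transcript length and library depth), IL6 was the most abundant of the 10 genes in every group. In deficient cells under AA its level was 50.6 ± 2.26 FPKM. IL11 at 9.28 ± 0.895 FPKM and LIF at 8.59 ± 0.481 FPKM came next and overlapped each other, followed by CXCL2 at 3.81 FPKM, CXCL8 at 3.11 FPKM, IL1A at 1.63 FPKM, and CXCL1 and IL1B, which overlapped at 0.642 and 0.515 FPKM. In deficient cells under PBS the order differed: IL6 at 23.1 ± 2.24 FPKM was followed by LIF at 16.5 ± 3.52 FPKM, then by CXCL2 at 3.15 FPKM and IL11 at 2.45 FPKM, which overlapped. Under both agents, LIF followed IL6 in intact cells, and IL11 came after LIF.

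The summed level of the 10 genes was 78.2 ± 2.62 FPKM in deficient cells under AA, against 47.4 ± 4.42 FPKM in deficient cells under PBS. The sum in intact cells was 35.5 ± 3.76 FPKM under AA, against 51.5 ± 3.56 FPKM under PBS (SD, n = 3 each). The 3 gp130 cytokines IL6, LIF and IL11 made up 87.0% to 92.3% of that sum in every library. The share of IL6 was 64.7% in deficient cells under AA against 48.9% under PBS, and 64.5% in intact cells under AA against 48.9% under PBS. LIF held 11.0% in deficient cells under AA against 34.4% under PBS, and 18.3% in intact cells under AA against 36.0% under PBS. IL11 held 11.9% in deficient cells under AA against 5.11% under PBS, and 8.93% in intact cells under AA against 6.92% under PBS. Under AA the share of LIF was thus lower and that of IL6 higher in both genotypes. The sum was higher under AA in deficient cells and lower under AA in intact cells, where IL6 itself had 22.8 FPKM under AA against 25.2 FPKM under PBS. The LIF share also depends on the length behind its FPKM, described below.

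**Figure D2:**
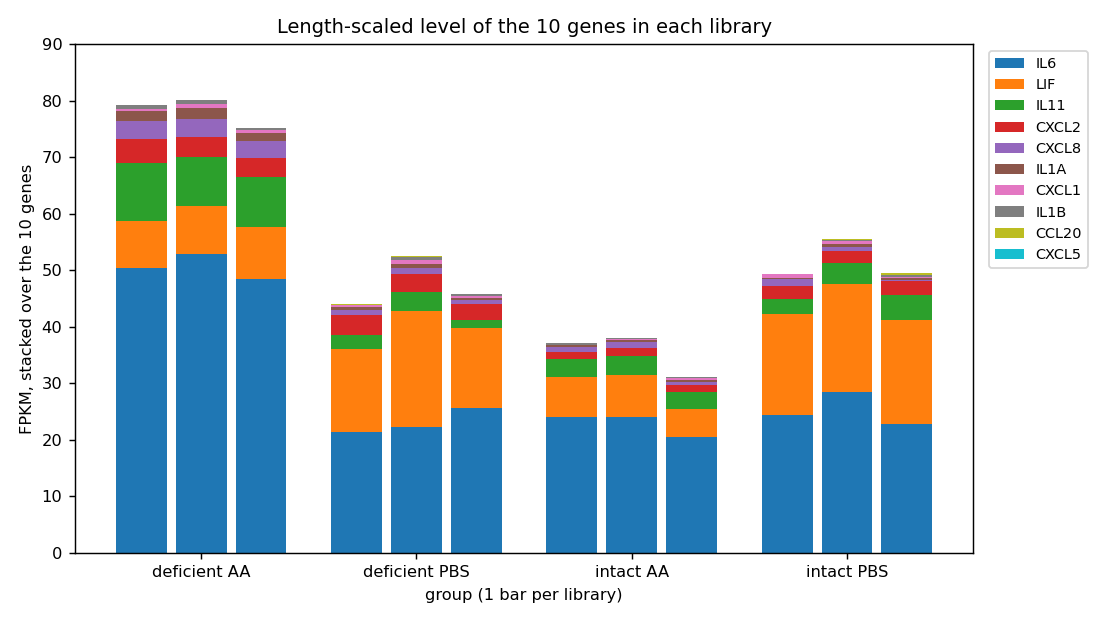
FPKM of the 10 genes stacked for each library, 3 bars per group. The deficient AA bars reach 75.2 to 80.1 FPKM, above all others, the intact AA bars are the lowest at 31.2 to 38.1 FPKM, and LIF (orange) is thinner under AA than under PBS in both genotypes.

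The DNA before the start sites and the 3′ untranslated regions (UTRs) of these genes hold the elements named above, and 4 promoters are shown because their genes carry the main contrasts: IL6, IL11 and CXCL8, which rose under AA in deficient cells, and CXCL2, which did not pass there. Each run is the 250 bases before the transcription start in RefSeq on GRCh38.p14, written 5′ to 3′ on the strand of the gene. Capitals mark matches to the κB motif GGANTTTCC, the AP-1 motif TGANTCA or the C/EBP motif TTGCNNAA on either strand, which do not overlap one another here.
IL6, chr7:22726950-22727199, plus strand: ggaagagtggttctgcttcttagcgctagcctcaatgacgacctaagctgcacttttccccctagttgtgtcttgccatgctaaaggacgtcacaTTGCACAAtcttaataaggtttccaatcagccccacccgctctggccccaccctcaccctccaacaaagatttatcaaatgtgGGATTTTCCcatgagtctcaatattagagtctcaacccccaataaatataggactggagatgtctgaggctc
IL11, chr19:55370464-55370713, minus strand: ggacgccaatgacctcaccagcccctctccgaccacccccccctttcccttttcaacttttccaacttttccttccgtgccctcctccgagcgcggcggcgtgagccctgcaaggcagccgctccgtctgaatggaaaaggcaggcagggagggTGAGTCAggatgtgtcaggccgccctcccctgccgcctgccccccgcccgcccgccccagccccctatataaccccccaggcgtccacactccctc
CXCL8, chr4:73740319-73740568, plus strand: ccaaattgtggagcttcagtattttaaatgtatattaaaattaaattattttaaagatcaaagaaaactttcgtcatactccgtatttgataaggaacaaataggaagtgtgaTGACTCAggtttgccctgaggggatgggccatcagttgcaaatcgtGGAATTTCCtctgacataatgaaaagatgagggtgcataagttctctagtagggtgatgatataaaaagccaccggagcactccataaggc
CXCL2, chr4:74099196-74099445, minus strand: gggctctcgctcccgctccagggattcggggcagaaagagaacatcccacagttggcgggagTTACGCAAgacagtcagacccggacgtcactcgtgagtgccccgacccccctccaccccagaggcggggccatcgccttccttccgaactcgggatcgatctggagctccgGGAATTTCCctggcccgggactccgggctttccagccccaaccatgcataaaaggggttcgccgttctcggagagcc

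RefSeq promoters were matched for 9 of the 10 genes, LIF being the gene without an entry. The κB letters stood in 5 of the 9, those of IL6, CXCL8, CXCL1, CXCL2 and CXCL5, at 72 to 91 bases before the start, where 1.45% of 35116 promoters of the same length hold them. The form GGANTTTCC was chosen after these promoters were seen, so that count describes them only. AP-1 letters stood in 3 of the 9, those of IL11, CXCL8 and IL1A (6.57% of all promoters), and C/EBP letters in 3, those of IL6, CXCL2 and IL1B (9.05%). The C/EBP-ATF composite TGATGNAA and the cyclic AMP response element TGACGTCA were in 0 of the 9 windows. Of the 5 genes with κB letters, CXCL5 had no count. With AA in deficient cells IL6 and CXCL8 rose and CXCL1 and CXCL2 did not pass. Between genotypes under AA these 4 were all called higher in deficient than in intact cells, CXCL1 not with DESeq2. So were IL11 and IL1A, which lack κB letters, and 28.7% of all tested genes. A relation of these letters to the changes was not tested. A match in these letters is a description of the sequence, not a measured binding site.

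The 3′ UTRs carry the pentamer ATTTA, the core of AU-rich elements, and 30-base windows holding the most pentamers are shown for the 3 gp130 cytokines and 2 chemokines, with pentamers in capitals (GENCODE release 29, GRCh38).
IL6, 3′ untranslated region: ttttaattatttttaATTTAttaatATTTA
IL11, 3′ untranslated region: ccaaagccagatcttATTTATTTATTTAtt
LIF, 3′ untranslated region: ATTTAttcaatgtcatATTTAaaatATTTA
CXCL8, 3′ untranslated region: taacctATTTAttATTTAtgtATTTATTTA
CXCL2, 3′ untranslated region: gtcttctATTTATTTATTTATTTATTTAtt

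IL6 has 6 pentamers, or 14.0 per kilobase of 3′ UTR, and CXCL2 has 10, or 13.9 per kilobase, densities that 0.546% and 0.586% of 12456 genes exceed. CXCL8 has 7.19 per kilobase and IL11 5.56, where the median gene has 1.53. LIF has 7 pentamers in a long 3′ UTR, or 2.18 per kilobase, and 39.3% of genes have more. A relation of pentamer density to the changes under AA was not tested. The nonamer TTATTTATT, a stricter form of the element, is in 6 of the 10, with 6 copies in IL11, 5 in CXCL2, 3 in CXCL1, 2 each in LIF and IL1B, and 1 in CXCL8, against 8.17% of genes with any.

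IL6 encodes interleukin-6, an inducer of STAT3 and of the acute phase response, at chr7:22725884-22732002 on the plus strand. It had 42.8, 46.3 and 40.3 CPM in deficient cells under AA, against 20.7, 21.8 and 25.5 CPM in deficient cells under PBS. In intact cells it had 20.8, 21.2 and 18.9 CPM under AA, against 23.0, 25.5 and 21.6 CPM under PBS. The deficient AA libraries stood apart, and the other 9 lay between 18.9 and 25.5 CPM. IL6 rose 1.90-fold in deficient cells (log2 change 0.93 ± 0.08 SE, edgeR adjusted p = 7.44e-10) and fell by 0.21 ± 0.09 on the log2 scale in intact cells (adjusted p = 0.0392). That small fall did not pass with DESeq2 (adjusted p = 0.0738), with upper quartile factors (0.143), with limma on log2 FPKM (0.195), or without intact AA library 1 or 3 or intact PBS library 1 or 2 (0.0555, 0.156, 0.0585 and 0.211). The difference between genotypes was 1.13 ± 0.12 (adjusted p = 8.35e-08). Under AA, IL6 was 2.13-fold higher in deficient than in intact cells, and 1.91% of tested genes had a larger log2 difference. STEAP1B and an antisense RNA overlap IL6 on the opposite strand, and the labels do not say if counting used strand. STEAP1B had at most 0.272 CPM in any library.

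IL11 encodes interleukin-11, a gp130 cytokine of epithelium and stroma known for roles in fibrosis and tumour growth, at chr19:55364389-55370463 on the minus strand. Its values were 17.3, 14.7 and 14.2 CPM in deficient cells under AA, against 4.11, 4.98 and 3.26 CPM in deficient cells under PBS. Intact cells had 4.69, 6.23 and 6.10 CPM under AA, against 4.72, 6.38 and 6.52 CPM under PBS. The deficient AA libraries were all above 14 CPM and every other library was below 7 CPM. The 3.73-fold rise in deficient cells (log2 change 1.90 ± 0.16, edgeR adjusted p = 3.62e-10) was the largest estimate of the 8 genes in that comparison, with CXCL8 within its error, and 1.59% of tested genes had a larger log2 change. In intact cells the log2 change was -0.06 with a 95% interval of -0.38 to 0.26. The difference between genotypes was 1.96 ± 0.23 (adjusted p = 4.43e-07), larger than for all but 0.448% of tested genes.

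LIF encodes leukaemia inhibitory factor, the gp130 cytokine that signals through LIFR, at chr22:30240447-30246851 on the minus strand. It had 31.3, 28.96 and 27.3 CPM in deficient cells under AA, against 42.2, 49.1 and 43.0 CPM in deficient cells under PBS. Intact cells had 22.7, 19.5 and 19.0 CPM under AA, against 49.6, 48.4 and 43.5 CPM under PBS. The AA libraries lay below the PBS libraries in both genotypes, and the intact AA libraries were the lowest. LIF fell by 0.62 ± 0.08 on the log2 scale in deficient cells (edgeR adjusted p = 2.19e-07) and by 1.21 ± 0.08 in intact cells (adjusted p = 1.56e-11). The fall was smaller in deficient cells, by 0.59 ± 0.11 (adjusted p = 1.49e-04), and under AA the level there was 1.43-fold higher than in intact cells. In deficient cells LIF and IL6 thus changed in opposite directions in the same libraries.

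The size of the LIF change depended on the table. On log2 FPKM with a pseudocount of 0.1, limma gave -0.91 ± 0.15 in deficient cells (adjusted p = 1.08e-04) and -1.51 ± 0.15 in intact cells (adjusted p = 2.09e-06). The length implied by the 2 deposited tables, the count divided by FPKM and by the library total, was 3512 ± 401 bases for LIF in deficient cells under AA against 2740 ± 336 bases under PBS, and 3161 ± 538 bases in intact cells under AA against 2523 ± 203 bases under PBS. The ratio of AA to PBS was 1.28 in deficient and 1.25 in intact cells, where the median gene had 1.00, and 0.597% and 0.762% of 10890 genes had a larger ratio. GENCODE lists LIF transcripts of 3969 and 592 bases. For IL6 the ratios were 0.904 and 0.960, and for IL11 0.972 and 1.08. The antisense genes LIF-AS1 and AC004264.1 overlap LIF and have no row in the count table.

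**Figure D3:**
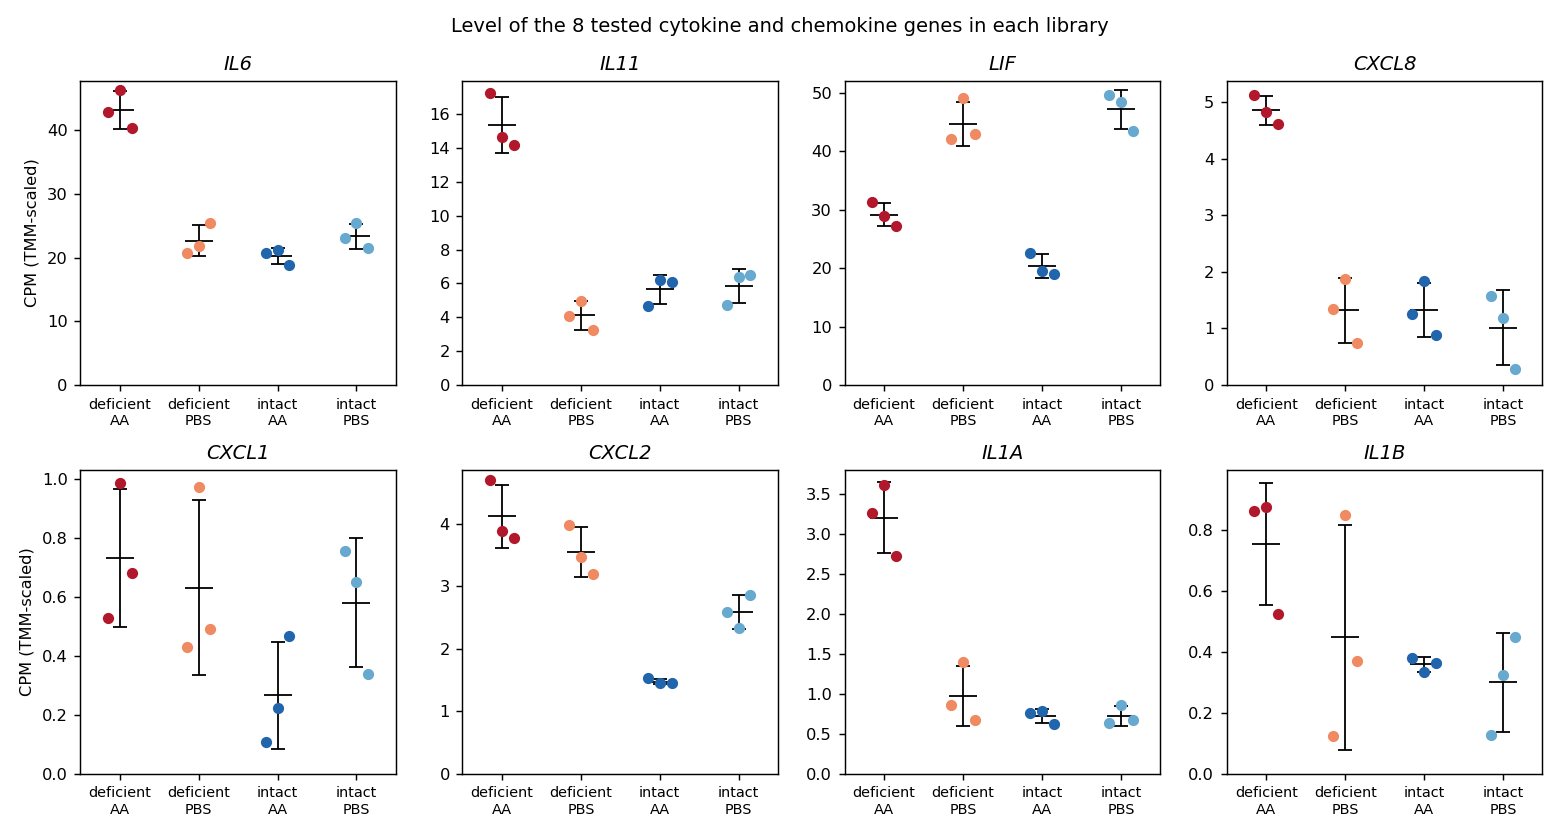
CPM of the 8 tested genes in each library (points), with the group mean and SD in black, 3 libraries per group. IL6, IL11, CXCL8 and IL1A have their 3 deficient AA libraries above all others, whereas for LIF both PBS groups are highest.

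CXCL8 encodes interleukin-8, a chemokine that recruits neutrophils, at chr4:73740506-73743716 on the plus strand. Its counts were 107, 88 and 88 in deficient cells under AA, against 22, 31 and 12 in deficient cells under PBS, which are 5.13, 4.82 and 4.61 CPM against 1.35, 1.88 and 0.738 CPM. In intact cells there were 23, 33 and 17 counts under AA, against 25, 22 and 5 under PBS. The lowest deficient AA library had 4.61 CPM, above the highest of the other 9 at 1.88 CPM, and those 9 overlapped one another. CXCL8 rose 3.65-fold in deficient cells (log2 change 1.87 ± 0.36, edgeR adjusted p = 6.96e-05), and its log2 change in intact cells was 0.39 with a 95% interval of -0.44 to 1.22. Under AA it was 3.68-fold higher in deficient than in intact cells (adjusted p = 8.73e-05). The difference in the effect of AA was 1.48 ± 0.56 (adjusted p = 0.0367). That call was lost when any of 9 of the 12 libraries was left out (adjusted p from 0.0504 to 0.179), that is, all but deficient PBS 2, intact AA 2 and intact PBS 3. On log2(FPKM + 0.1), limma gave a difference of 1.39 that did not pass (adjusted p = 0.0866), and on log2(FPKM + 1) one of 1.03 that did (adjusted p = 0.00825). On log2(FPKM + 1), which understates changes of low genes, limma gave a smaller rise in deficient cells, 1.13 (adjusted p = 1.26e-04), and 1.20 between genotypes under AA (adjusted p = 1.39e-04).

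CXCL2, at chr4:74097035-74099293 on the minus strand, belongs to the same cluster of CXC chemokine genes, which spans 358.8 kilobases from CXCL8. CXCL2 had 4.70, 3.89 and 3.77 CPM in deficient cells under AA, against 3.98, 3.46 and 3.20 CPM in deficient cells under PBS. Intact cells had 1.53, 1.45 and 1.45 CPM under AA, against 2.58, 2.32 and 2.86 CPM under PBS. The deficient libraries overlapped between AA and PBS, and the intact AA libraries were below all others. The log2 change was 0.22 in deficient cells with a 95% interval of -0.15 to 0.58 (edgeR adjusted p = 0.295), and CXCL2 fell by 0.81 ± 0.22 in intact cells (adjusted p = 0.00249). The difference was 1.03 ± 0.29 (adjusted p = 0.00582), and under AA CXCL2 was 2.79-fold higher in deficient than in intact cells (adjusted p = 2.23e-06). CXCL2 and CXCL8 thus both ended higher in deficient cells under AA, CXCL8 with a rise in deficient cells and CXCL2 with a fall in intact cells. The estimate for CXCL2 was also higher in deficient cells under PBS, by 0.45 ± 0.20, which did not pass (edgeR adjusted p = 0.515).

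CXCL1, at chr4:73869393-73871242 on the plus strand, was near the limit of what these libraries can resolve. It had 11, 18 and 13 counts in deficient cells under AA, against 7, 16 and 8 in deficient cells under PBS, and 2, 4 and 9 counts in intact cells under AA, against 12, 12 and 6 in intact cells under PBS. Under AA it was 2.66-fold higher in deficient than in intact cells (log2 difference 1.41 ± 0.54, edgeR adjusted p = 0.0307). This call was lost without deficient AA library 2 or 3 (adjusted p = 0.127 and 0.0521), without intact AA library 1 or 2 (0.138 and 0.0877), and with DESeq2 (0.0565). Leaving out 1 library moved the log2 difference to between 1.05, without intact AA library 1, and 2.09, without intact AA library 3. CXCL1, CXCL2 and CXCL3 are similar in sequence, and an estimator of counts may divide their reads unevenly, so the level of each is uncertain.

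CXCL5, which lies between CXCL1 and CXCL2, had 0 counts in all 12 libraries, which allows up to 0.0139 CPM over the 12 together (3 counts, counting error only). CXCL6, PF4V1, PF4 and PPBP, the other chemokine genes of the interval, also had 0 counts in every library. CXCL3 summed to 57 counts in deficient cells under AA, against 13 in deficient cells under PBS, and to 19 in intact cells under AA, against 27 in intact cells under PBS. CXCL3 rose in deficient cells by 1.86 ± 0.52 (edgeR adjusted p = 0.00294). The interval thus held genes with counts next to genes without any.

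CCL20, at chr2:227805739-227817564 on the plus strand, had 1, 0 and 0 counts in deficient cells under AA, against 3, 1 and 1 in deficient cells under PBS. Intact cells had 0 counts in all 3 libraries under AA, against 0, 4 and 4 under PBS. The summed level was 0.0172 CPM in deficient cells under AA (exact Poisson 95% interval 4.35e-04 to 0.0957), against 0.102 CPM in deficient cells under PBS (0.0331 to 0.238). In intact cells it was 0 under AA (up to 0.0539 CPM at 3 counts), against 0.153 CPM under PBS (0.0662 to 0.302). These intervals cover counting error only, and CCL20 was below the filter and not tested.

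IL1A and IL1B encode the 2 agonists of the IL-1 receptor, of which IL-1α is known as an alarm signal released by damaged cells and IL-1β needs cleavage by caspase-1. They lie 45.2 kilobases apart on the minus strand, IL1A at chr2:112773915-112784590 and IL1B at chr2:112829751-112836903. IL1A had 68, 66 and 52 counts in deficient cells under AA, against 14, 23 and 11 in deficient cells under PBS, which are 3.26, 3.61 and 2.73 CPM against 0.858, 1.40 and 0.676 CPM. Intact cells had 14, 14 and 12 counts under AA, against 10, 16 and 12 under PBS. As for CXCL8, the 3 deficient AA libraries stood above all others and the remaining groups overlapped. IL1A rose 3.25-fold in deficient cells (log2 change 1.70 ± 0.29, edgeR adjusted p = 2.14e-05), and its log2 change in intact cells was -0.01 with a 95% interval of -0.73 to 0.70. The difference was 1.72 ± 0.48 (adjusted p = 0.00544). Under AA, IL1A was 4.41-fold higher in deficient than in intact cells, and 0.236% of tested genes had a larger genotype difference. It was the largest estimate of the 8 genes, with CXCL8 within its error. On log2(FPKM + 1), limma gave smaller values for IL1A, 0.84 in deficient cells, 0.84 for the difference and 0.96 between genotypes under AA, each past the threshold. The last is below the 1.20 of CXCL8 on that scale.

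IL1B stayed low, with 18, 16 and 10 counts in deficient cells under AA, against 2, 14 and 6 in deficient cells under PBS, and 7, 6 and 7 counts in intact cells under AA, against 2, 6 and 8 in intact cells under PBS. Its log2 change in deficient cells was 0.74 with a 95% interval of -0.28 to 1.77 (edgeR adjusted p = 0.204), an interval that also holds the change of IL1A. Without deficient PBS library 2, which had 14 counts, it was 1.60 (adjusted p = 0.0286). The level under AA was 2.08-fold that of intact cells, with an adjusted p of 0.093.

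The chains that receive these cytokines were measured in the same libraries. Of 12 receptor genes 7 were tested; the neutrophil and lymphocyte chemokine receptors CXCR1, CXCR2 and CCR6, the decoy IL1R2 and ACKR1 were below the filter. AA raised 3 and lowered 2 of the 7 in deficient cells, and raised 1 and lowered 3 in intact cells. Called were thus 71.4% and 57.1%, not above the background of 74.4% and 69.8% of all tested genes. IL6ST, which encodes the shared chain gp130, averaged 350 ± 7.05 CPM in deficient cells under AA against 311 ± 9.13 CPM under PBS, and 221 ± 8.93 CPM in intact cells under AA against 309 ± 9.76 CPM under PBS. It rose in deficient cells by 0.17 and fell in intact cells by 0.48, a difference of 0.66 ± 0.05 (edgeR adjusted p = 4.75e-10). LIFR moved likewise, by 0.11 in deficient cells and -0.23 in intact cells. IL6R, the IL-6 binding chain, had 5.45 CPM in deficient cells under AA against 14.2 CPM under PBS, and 10.8 CPM in intact cells under AA against 16.5 CPM under PBS, and fell in both. IL1R1 fell in deficient cells by 1.15 ± 0.10 (adjusted p = 1.86e-09), to 7.92 CPM under AA against 17.5 CPM under PBS, and its change in intact cells was -0.15 (adjusted p = 0.192).

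Of 14 genes of JAK-STAT signalling below gp130, AA raised 5 and lowered 5 in each genotype. That is 71.4% of the list, near the background of 74.4% of all tested genes in deficient and 69.8% in intact cells. SOCS3, a STAT3-induced brake on gp130, rose more in intact cells: it averaged 42.7 ± 2.06 CPM in deficient cells under AA against 17.1 ± 2.68 CPM under PBS, and 73.0 ± 2.67 CPM in intact cells under AA against 16.2 ± 0.778 CPM under PBS. The difference was -0.85 ± 0.11 (edgeR adjusted p = 2.62e-06). PIM1, OSMR and FOSL1 went the other way, with differences of 0.71, 0.40 and 1.03 toward deficient cells. The list's median was 0.015 in deficient cells and 0.080 in intact cells, beside 0.013 and 0.0069 over all genes.

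Of 15 tested genes of the IL-1 and Toll-like receptor relay, 3 rose and 7 fell in deficient cells, and 2 rose and 9 fell in intact cells. These calls cover 66.7% and 73.3% of the list, where 74.4% and 69.8% of all tested genes were called. TRAF6, the ubiquitin ligase of the relay, fell in both, by 1.14 in deficient and 0.82 in intact cells. IRAK2, a kinase-like relay protein, averaged 27.8 CPM in deficient cells under AA against 31.6 CPM under PBS, and 13.9 CPM in intact cells under AA against 30.6 CPM under PBS, a difference in the effect of AA of 0.95 ± 0.11 (edgeR adjusted p = 6.82e-07). The median was -0.12 in deficient and -0.21 in intact cells. The antagonist gene IL1RN was below the filter.

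Of 23 tested genes of transcription factors and regulators at cytokine promoters, CEBPB, CEBPG and DDIT3 were among those whose response to AA was higher in deficient cells. In deficient cells 12 rose and 10 fell, with a median of 0.10, and in intact cells 7 rose and 15 fell, with a median of -0.26. The effect of AA differed for 18 of the 23, or 78.3%, where 44.6% of all genes differed: 15 were higher in deficient cells and 3 lower. AA itself was called for 95.7% of the list in each genotype, where 74.4% and 69.8% of all tested genes were called. The list was chosen with earlier results of these data known, so these shares describe the list only. The median difference was 0.39, beside -0.013 over all genes. CEBPB, a C/EBP factor known to act on IL6, averaged 107 ± 3.66 CPM in deficient cells under AA against 53.9 ± 4.08 CPM under PBS, and 51.6 ± 4.67 CPM in intact cells under AA against 57.5 ± 0.862 CPM under PBS. CEBPG, a dimer partner of other bZIP factors, had 110 ± 3.32 CPM in deficient cells under AA against 46.6 ± 1.49 CPM under PBS, and 27.1 ± 0.771 CPM in intact cells under AA against 44.2 ± 0.802 CPM under PBS. DDIT3, the stress-induced factor CHOP, had 31.9 ± 0.830 CPM in deficient cells under AA against 9.09 ± 0.713 CPM under PBS, and 7.16 ± 0.927 CPM in intact cells under AA against 8.56 ± 0.509 CPM under PBS. The differences were 1.15, 1.94 and 2.07 on the log2 scale, with edgeR adjusted p-values of 3.47e-10, 3.43e-15 and 1.31e-10.

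NFKB2 and TNFAIP3, genes of the NF-κB pathway, fell under AA in both genotypes, further in intact cells. NFKB2, which encodes the p100 and p52 subunit, averaged 191 ± 4.08 CPM in deficient cells under AA against 222 ± 8.90 CPM under PBS, and 92.1 ± 2.55 CPM in intact cells under AA against 229 ± 6.12 CPM under PBS. The difference was 1.10 ± 0.05 (edgeR adjusted p = 3.45e-13). TNFAIP3, the NF-κB induced feedback gene A20, fell by 1.31 in deficient and by 1.99 in intact cells. The immediate early gene FOS rose by 4.54 in deficient and by 5.68 in intact cells, EGR1 rose by 5.51 in deficient cells, and ATF3 by 2.35 in deficient cells.

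**Figure D4:**
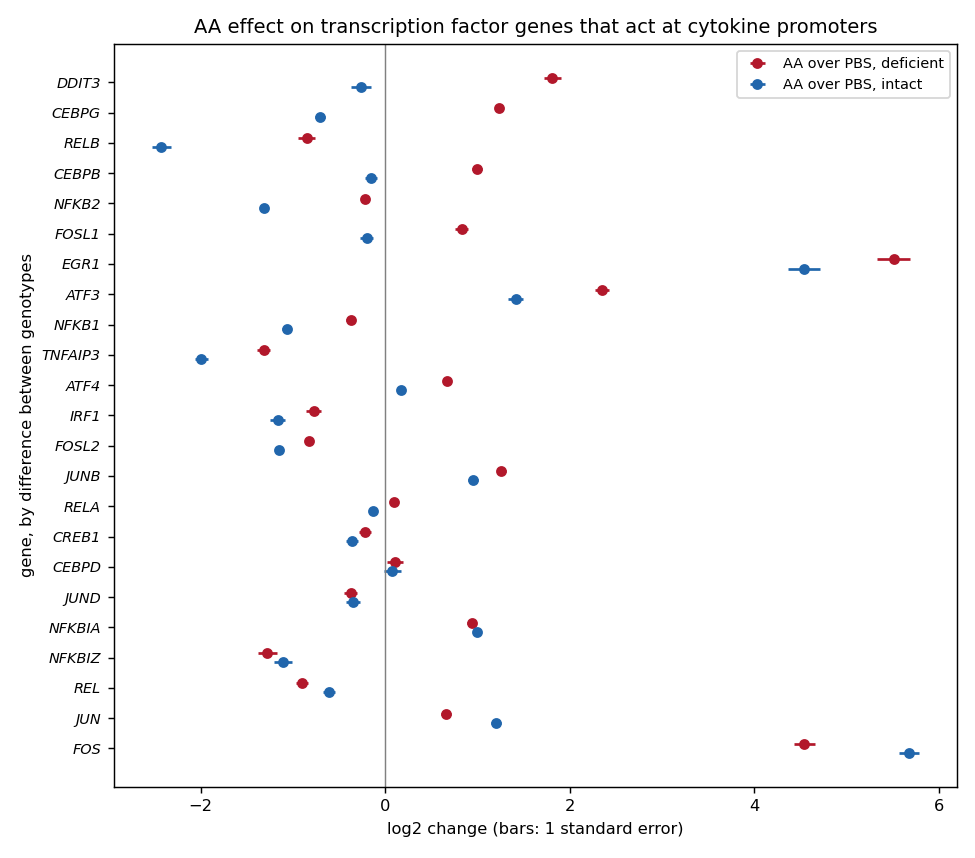
Log2 change under AA of the 23 transcription factor and regulator genes in deficient cells (red) and intact cells (blue), with bars of 1 standard error, ordered by the difference between genotypes. DDIT3, CEBPG and CEBPB lie right of 0 in deficient cells and left of 0 in intact cells, while FOS and EGR1 lie far to the right in both.

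Of 14 genes of AU-rich element binding and cytokine mRNA decay, 4 rose and 5 fell in deficient cells, and 4 rose and 7 fell in intact cells. The shares called, 64.3% and 78.6%, stand beside 74.4% and 69.8% of all tested genes. ZFP36, which encodes tristetraprolin, the factor that binds ATTTA elements and promotes decay, averaged 55.9 ± 4.07 CPM in deficient cells under AA against 11.0 ± 0.150 CPM under PBS, and 72.9 ± 5.82 CPM in intact cells under AA against 11.6 ± 1.54 CPM under PBS. It rose in both genotypes (log2 change 2.34 and 2.65), and the difference missed the threshold (edgeR adjusted p = 0.052). ZC3H12C, a relative of the cytokine mRNA nuclease regnase-1, fell in intact cells by 1.05, to 17.2 CPM under AA against 35.5 CPM under PBS, and had 37.1 CPM under AA against 39.4 CPM under PBS in deficient cells, a difference of 0.96 ± 0.11 (adjusted p = 4.43e-07).

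Of 11 tested genes of IL-1 processing and release, 7 rose and 1 fell in deficient cells, and 6 rose and 1 fell in intact cells, with medians of 0.21 and 0.32. Calls reached 72.7% and 63.6% of them, not above the 74.4% and 69.8% of all tested genes. Of all tested genes 37.0% rose in deficient and 34.5% in intact cells. CASP4, an inflammatory caspase, averaged 150 ± 3.45 CPM in deficient cells under AA against 79.1 ± 3.16 CPM under PBS, and 95.8 ± 1.08 CPM in intact cells under AA against 76.4 ± 2.71 CPM under PBS. CAPN1, a calpain, rose in intact cells by 0.46 and was -0.53 ± 0.06 in the difference (edgeR adjusted p = 1.47e-07). NLRP3 and GSDMD were below the filter.

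Among 41 other cytokine and chemokine genes, 19 were tested, and the rest, TNF, CSF2, CSF3 and CXCL10 among them, were below the filter. AA raised 10 and lowered 2 in deficient cells, and raised 7 and lowered 5 in intact cells, with median log2 changes of 0.30 and 0.44. In each genotype 63.2% were called, below the 74.4% and 69.8% of all tested genes. Of all tested genes 37.0% rose and 37.4% fell in deficient cells, and 34.5% rose and 35.2% fell in intact cells. GDF15, a stress-induced member of the TGF-β family, was the most strongly changed: it averaged 193 ± 4.69 CPM in deficient cells under AA against 18.6 ± 2.18 CPM under PBS, and 59.9 ± 2.69 CPM in intact cells under AA against 13.3 ± 0.419 CPM under PBS. VEGFA, the angiogenic growth factor, had 173 ± 7.23 CPM in deficient cells under AA against 57.2 ± 0.609 CPM under PBS, and 75.7 ± 3.62 CPM in intact cells under AA against 54.2 ± 3.28 CPM under PBS. IL18, a cytokine of the IL-1 family, had 62.5 ± 4.64 CPM in deficient cells under AA against 30.4 ± 3.35 CPM under PBS, and 37.1 ± 2.04 CPM in intact cells under AA against 27.3 ± 0.591 CPM under PBS. The differences in the effect of AA were 1.20, 1.12 and 0.60 (edgeR adjusted p = 1.58e-09, 2.78e-11 and 6.21e-05). The effect of AA differed for 6 of these 19 genes, or 31.6%, where 44.6% of all tested genes differed, and 5 of the 6 were higher in deficient cells.

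By the correlation of log2 CPM over the 12 libraries, IL6 was most like RAD23B (r = 0.982), FAM220A (0.982) and METTL6 (0.979) among 9689 candidate genes. IL11 was most like FPGS (0.976), PLAU (0.971) and FYN (0.964), and LIF was most like CDV3 (0.990), ADNP2 (0.989) and ANKRD11 (0.988). PLAU, the urokinase gene, had 26.2 CPM in deficient cells under AA, 6.03 in deficient cells under PBS, 8.77 in intact cells under AA and 7.90 in intact cells under PBS. These likenesses rest on 4 groups, and 436, 336 and 759 genes had r above 0.9 with IL6, IL11 and LIF.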

How the data were processed

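RNA was enriched with oligo(dT) beads, made into libraries with a NEBNext Ultra RNA kit and sequenced on an Illumina NovaSeq instrument, per the labels' protocols. The submitters' processing notes name RSEM, StringTie 1.3.1, HISAT2 2.1.0, Bowtie2 2.2.8 and fastp 0.18.0, in no stated order. Build, annotation and strand were not given in the sources used here. Estimated counts were deposited by the authors, of which 10.9% to 11.5% per library are not whole, with FPKM values for the same 20323 genes. Counts were rounded, filtered by group (minimum count 10, 12718 genes left) and scaled by TMM (factors 0.987 to 1.033).

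In R 4.3.3, a quasi-likelihood model with group as the factor was fitted to the 12 libraries with edgeR 4.0.16, which tested 5 comparisons and called genes at a Benjamini-Hochberg adjusted p under 0.05 over all tested genes. Standard errors are the log2 change over the square root of F, and 95% intervals of log2 changes use the normal approximation. CPM are TMM-scaled. The steps were tested on simulated counts. Alternatives used DESeq2 1.42.0, limma 3.58.1 on log2 FPKM, other factors and filters, a replicate block and leaving out each library. Libraries of a group differed beyond sampling noise (chi-square per degree of freedom 1.99 to 4.29), so none was taken for a copy. Whether replicates are separate cultures is not stated, so p-values measure a spread between libraries that may be technical only.

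All 10 members could be named, and of each pathway list up to 4 called genes of smallest p per comparison, with genes below the filter named as such; CXCL3 and its silent neighbours were added after their values were seen. The members and lists were chosen with earlier results of these data known. Gene positions and 3′ UTRs are from GENCODE release 29 on GRCh38 and promoters from RefSeq, neither matched to the authors' build.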

Additional observations from a re-analysis of the deposited data

Results flagged for a closer look

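The effect of AA differed between LKB1-deficient and LKB1-intact cells, by the interaction of genotype and treatment in edgeR, for 6 of the 8 tested genes. The difference, deficient minus intact on the log2 scale, was 1.96 for IL11, 1.72 for IL1A, 1.48 for CXCL8, 1.13 for IL6, 1.03 for CXCL2 and 0.59 for LIF. They arose in different ways: IL11, CXCL8 and IL1A rose in deficient cells and did not pass in intact cells, IL6 rose in deficient cells and fell slightly in intact cells, CXCL2 fell in intact cells and did not pass in deficient cells, and LIF fell in both, less in deficient cells. With 44.6% of all tested genes called in that comparison, a call there is common in these libraries.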

How the results depend on the processing

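The number of the tested genes called in each comparison stayed within 1.5 times under every alternative run, and no called change reversed. Calls moved for IL6 in intact cells, for the CXCL8 difference and for CXCL1 under AA, with the values given above. IL1B passed under AA between genotypes when only those 6 libraries were fitted (1.06, adjusted p = 0.0431 with edgeR), and CXCL1 passed in intact cells without intact AA library 3 (-1.76, adjusted p = 0.036). With no low-count filter CCL20 was called lower under AA in intact cells (adjusted p = 0.0313), a fitted change against libraries at 0 counts. With a minimum of 30 counts, or of 1 FPKM in 3 libraries, CXCL1 and IL1B were not tested. Over all genes, the calls between genotypes under PBS were 35, but 111 with no filter, 5 with limma on log2 FPKM, and 6 to 15 when deficient PBS library 1 or 3 or any intact PBS library was left out. With limma on FPKM (log2, pseudocount 1), the difference in the effect of AA was called higher for 2689 and lower for 1768 genes, beside 2747 and 2926 with edgeR, and genotypes under AA for 3737 and 2456, beside 3653 and 3848.

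Replicate numbers did not pair the libraries: same-numbered libraries correlated in their deviations from the group means at -0.0939 to 0.0537 over 18 pairs, and 1 of 12 correlated best with its own number. With a replicate block the counts of called members were 5, 3, 6, 0 and 7, in the order AA in deficient cells, AA in intact cells, their difference, genotypes under PBS, and genotypes under AA. A fit of only the libraries compared was not run for the difference, which needs all 12. CXCL1 and IL1B had at most 18 counts in a library and CCL20 at most 4.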
